A study of Mus musculus with 12 samples.

Results

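Ifi44 and Ifi44l, neighbouring genes that are induced by type I interferon, were taken by symbol from the tables of 12 RNA-seq libraries of mouse bone marrow-derived macrophages (BMMs), the precursors of osteoclasts. They are 2 of the 24421 genes listed in every table, chosen by their CPM in the libraries without RANKL, where both were lower in Mir182-deficient than in WT cells while other interferon genes were higher. The loss of function experiment compared WT cells (Mir182+/+LysMcre(+)) with Mir182ΔM/ΔM cells (Mir182flox/floxLysMcre(+)), each left basal or given RANKL, the cytokine that drives osteoclast formation, for 5 days. The gain of function experiment compared basal Control cells (LysMcre(+)) with basal Mir182mTg cells (LSL-Mir182LysMcre(+)). All 6 groups carried the LysMcre transgene, whose Cre is made in myeloid cells from the lysozyme M promoter, so that miR-182 was altered in the myeloid lineage and in no group as a germline null. The labels give the strain C57BL/6 and 3 days of culture with M-CSF for every library. Each group had 2 replicates. The animals' ages are not given in the sources used here, nor is whether a replicate was 1 mouse or a pool.

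Type I interferons bind the receptor made of Ifnar1 and Ifnar2, and the kinases Jak1 and Tyk2 then pass the signal on to transcription factors, Stat2 and Irf9 among them, that act at interferon-stimulated response elements (ISREs) in the promoters of antiviral genes. IFI44 and IFI44L, the human counterparts of the genes described here, belong to this response and have been reported to bind the co-chaperone FKBP5 and to dampen it. In osteoclast precursors, interferon made after RANKL is known to restrain differentiation.

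Both genes lie on the minus strand of chromosome 3 in GRCm38, the build also called mm10. In GENCODE vM21, Ifi44 spans chr3:151730922-151749960, with 4 annotated transcripts, of which 1 is protein-coding and has 8 exons. Ifi44l spans chr3:151758737-151762892, with 1 transcript of 3 exons, and 8776 bases separate the genes. GENCODE marks Ifi44l with the tag "reference_genome_error", which 13 of 55450 annotated genes carry, and it marks the start of its mRNA and of its coding part as not found. RefSeq lists H28, the name of a minor histocompatibility antigen, as a synonym of Ifi44l. Such antigens are by definition products that differ between strains. The transcripts of the genes shared no run of 25 bases, so that a read of that length could match only one of them exactly.

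The sequence shown first is that of miR-182-5p, the RNA that the mice were made to lose or gain, with bases 2 to 8, the seed, in capitals. RefSeq places it at chr6:30165962-30165986 on the minus strand of GRCm38.p6.

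mmu-miR-182-5p: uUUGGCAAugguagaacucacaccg

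No transcript of Ifi44 or Ifi44l held the complement of the seed, TTGCCAA, or the related 7-base match TGCCAAA, in the 3′ untranslated region (1461 and 907 bases for the protein-coding transcripts) or elsewhere. The promoters were read from RefSeq, from 250 bases before to 50 bases after the start of each gene. For Ifi44l, whose mRNA start GENCODE marks as not found, the stretch read may not be its promoter. Neither stretch held the core of an ISRE on either strand, searched for as GAAA, 2 bases of any kind and GAAA. This core was present in 3.44% of 32851 promoters and in 23 of the 35 interferon-induced genes described below that had a promoter entry. A shorter form of the ISRE core, AAANNGAAA, was searched for after the promoters had been read. It occurred in 10.6% of promoters and in 28 of the 35 genes, and once in each of the promoters shown here. The stretches around it are printed as read along the gene, with the match, which is on the opposite strand, in capitals.

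Ifi44 promoter, chr3:151749947-151749975, minus strand: gtatacagagTTTCAGTTTtcgtttcccg

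Ifi44l promoter, chr3:151763065-151763093, minus strand: tagttaacatTTTCATTTTactgtaacaa

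The match begins 55 bases before the RefSeq start in Ifi44 and 192 bases before it in Ifi44l. In GENCODE the start of Ifi44 is at 151749960, which falls within the match (chr3:151749957-151749965). The distance therefore depends on the annotation used. These are matches of letters, and binding was not measured.

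Values are in counts per 1000000 reads on genes (CPM), from libraries of 24951280 to 33050619 reads, in which 3 reads, the smallest number taken as signal, stand for 0.0908 to 0.120 CPM. Replicate 1 was labelled as polyA RNA and replicate 2 as total RNA, and the libraries of 1 replicate number deviated together. The rRNA precursor row Rn45s ranged from 742 CPM in a replicate 1 library to 21273 CPM in a replicate 2 library, so differences are also given within each replicate number. The row of the Mir182 hairpin held 79 and 123 reads in the Mir182mTg libraries, 0 in Control, 1 in a basal Mir182ΔM/ΔM library and 0 in the other loss of function libraries. Libraries of long RNA hold little of such a short transcript, and this row therefore checks the Mir182mTg label only. Markers of macrophages (Csf1r, Adgre1, Cd68, Itgam, Fcgr1 and Mertk) summed to between 5620 and 8475 CPM in every library, and the osteoclast markers reached 4959 to 5318 CPM in WT RANKL and 1179 to 1264 CPM in Mir182ΔM/ΔM RANKL against 36.0 to 69.3 CPM in the basal groups. Of the markers of other marrow cells, 5 neutrophil genes summed to 5.31 to 112 CPM, 5 T cell genes to 0.265 to 16.8 CPM, 4 B and plasma cell genes to 0.427 to 6.91 CPM, 4 plasmacytoid dendritic cell genes to 0.630 to 1.89 CPM and 5 stromal genes to 1.48 to 34.6 CPM. The defining markers Cd3e, Cd3g and Ms4a1 never exceeded 3 reads. A share of cells that make a transcript and the amount made per cell cannot be told apart in such bulk libraries.

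In 2 genes that bear on what follows, WT RANKL was unlike the remaining loss of function groups. Lyz2, the lysozyme M gene from which LysMcre takes its promoter, was at 4117 and 4288 CPM in WT RANKL, and at 5783 and 6615 CPM in Control and 6338 and 7062 CPM in Mir182mTg. The values were 43.96 and 39.8 CPM in WT basal, 34.6 and 31.2 CPM in Mir182ΔM/ΔM basal, and 23.98 and 22.5 CPM in Mir182ΔM/ΔM RANKL. Ifi202b, an interferon-induced gene whose expression is known to differ between inbred strains, ran the other way. It was at 1.12 and 0.972 CPM in WT RANKL and at no more than 3 reads in any Control or Mir182mTg library, against 82.1 to 152 CPM in the 6 remaining libraries. The groups with high Lyz2 and little Ifi202b, which were WT RANKL, Control and Mir182mTg, were also the 3 groups in which Ifi44 was lowest. Every comparison of WT RANKL with another loss of function group crosses this division, all its libraries lie on the same side of it, and the part of the division in the results cannot be told apart from that of genotype or RANKL.

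**Figure D1:**
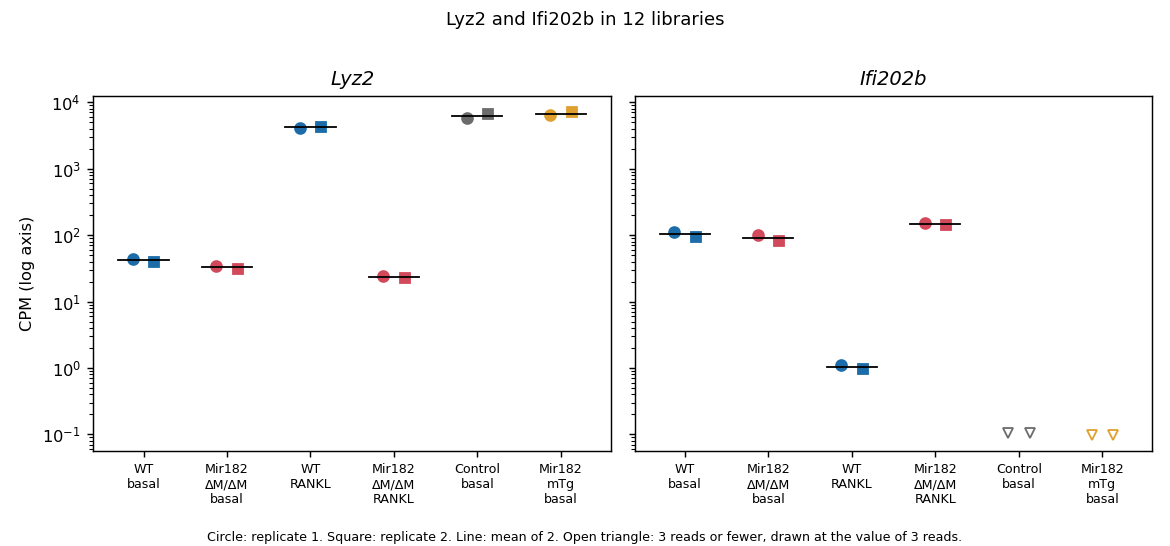
Lyz2 and Ifi202b in CPM (log axis) in the 6 groups, with replicate 1 as a circle, replicate 2 as a square, the mean of both as a line and an open triangle for 3 reads or fewer, drawn at the value of 3 reads. Lyz2 is at 4117 CPM or more in WT RANKL, Control and Mir182mTg and at 43.96 CPM or less in the other groups, and Ifi202b shows the opposite pattern.

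Ifi44 covered a wide range over the 6 groups, from 0.756 CPM in a Mir182mTg library to 226 CPM in a Mir182ΔM/ΔM RANKL library. It was at 226 and 206 CPM in Mir182ΔM/ΔM RANKL (216 ± 13.7, SD, n = 2), the group with the most. WT basal followed with 66.4 and 62.9 CPM (64.6 ± 2.49). Mir182ΔM/ΔM basal had 12.7 and 11.4 CPM (12.04 ± 0.874). No 2 of these groups overlapped.

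The low end was held by the 3 groups named above. Ifi44 was at 2.83 and 2.56 CPM in WT RANKL (2.69 ± 0.197), at 1.31 and 1.13 CPM in Control (1.22 ± 0.124) and at 0.756 and 0.967 CPM in Mir182mTg (0.862 ± 0.149). These rest on 71 and 71, 41 and 30, and 25 and 27 reads, in that order. Control and Mir182mTg, next to each other in this order, did not overlap in CPM, but the ratio of their pooled reads, 0.694, had a 95% interval that reached 1.01 for counting error alone.

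Ifi44l was above 3 reads per library in 2 groups, WT basal and Mir182ΔM/ΔM RANKL. It was at 19.8 and 25.05 CPM in WT basal (22.4 ± 3.70, SD, n = 2), from 648 and 625 reads. In Mir182ΔM/ΔM RANKL it had 0.230 and 0.433 CPM, from 7 and 11 reads. The other 8 libraries held 1 read between them, in Mir182ΔM/ΔM basal replicate 2, and the groups other than WT basal and Mir182ΔM/ΔM RANKL cannot be ordered at this depth. Per length of transcript, the genes were close in WT basal, at 22.2 ± 0.857 RPKM (reads per kilobase of transcript and per 1000000 reads) for Ifi44 and 17.4 ± 2.88 RPKM for Ifi44l, with the lengths of 2.908 and 1.286 kb that the authors' tables imply. In Mir182ΔM/ΔM RANKL, on the same scale, Ifi44 was at 74.3 ± 4.72 RPKM and Ifi44l at 0.258 ± 0.112 RPKM. The order of the groups thus differed between the genes, with Ifi44 highest in Mir182ΔM/ΔM RANKL and Ifi44l in WT basal.

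**Figure D2:**
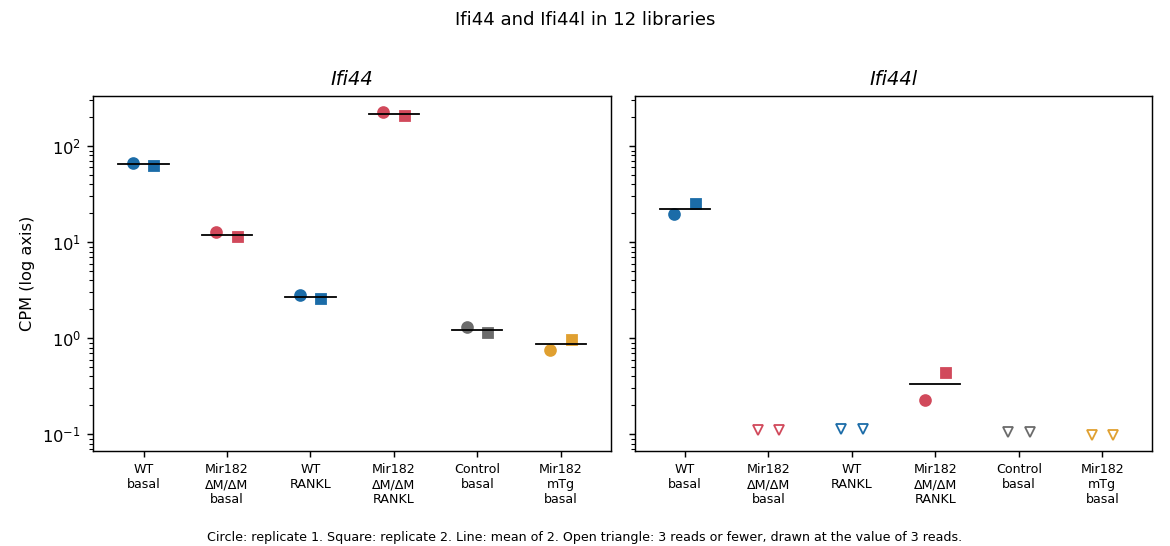
Ifi44 and Ifi44l in CPM (log axis) in the 6 groups, with replicate 1 as a circle, replicate 2 as a square, the mean of both as a line and an open triangle for 3 reads or fewer, drawn at the value of 3 reads. Ifi44 is highest in Mir182ΔM/ΔM RANKL (206 to 226 CPM), and Ifi44l is above 1 CPM in WT basal alone (19.8 to 25.05 CPM).

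The comparison of genotypes without RANKL chose these genes, and its values are a description. Ifi44 was 5.37-fold lower in Mir182ΔM/ΔM than in WT basal cells (log2 fold change -2.33, SE 0.0915, on the log2(CPM + 1) scale) and was at -2.30 in replicate 1 and -2.36 in replicate 2 on that scale. Ifi44l was lower as well, with 1 read against 1273. The ratio of pooled reads was 1188-fold, with a 95% counting interval from 213 to 46974. Of 11673 genes tested, Ifi44l had the lowest log2 fold change (-4.51) and Ifi44 the seventh lowest. These low places are in the comparison that chose the genes, and Ifi44l passed the filter on low values only through WT basal. All 49 genes of a list of type I interferon-induced genes lay above Ifi44 and Ifi44l, between -0.09 (Slfn8) and 2.48 (Xaf1). Their median was 0.81 against 0.01 for all genes tested. In that list 40 genes were called higher and 0 lower (limma, adjusted p under 0.05), where 3.82% of all genes tested were called, 2.72% higher and 1.11% lower. Ifi44 and Ifi44l were chosen against other interferon genes in this comparison, so this count is a description and no independent test. The count of 40 was 20 without the filter on low values and 22 with the samples of the contrast alone. It was 21 without Mir182ΔM/ΔM basal replicate 1 or WT basal replicate 2, and 23 without Mir182ΔM/ΔM basal replicate 2. The neutrophil markers summed to 76.1 to 84.7 CPM in WT basal and 92.1 to 98.3 CPM in Mir182ΔM/ΔM basal, and their part in these values was not tested. The highest were Xaf1, a proapoptotic interferon target (from 21.3 to 123 CPM), Oasl1, an OAS-like protein that restrains Irf7 translation (from 4.64 to 25.3 CPM) and Mx1, an antiviral GTPase (from 16.9 to 57.1 CPM). The lowest were Slfn8, a Schlafen family gene (from 53.6 to 50.2 CPM), the PYHIN family gene Ifi203 (from 160 to 173 CPM) and the nuclear body gene Sp100 (from 172 to 230 CPM). Ifi203 and Slfn8 have close paralogs, and their counts may share reads with them.

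After RANKL the order of the genotypes was the opposite for Ifi44. From 2.69 CPM in WT it rose to 216 CPM in Mir182ΔM/ΔM cells, an 80.2-fold difference of the means, with 95% counting limits of 68.4 and 95.9 on the ratio of pooled reads. The log2 fold change was 5.88 (SE 0.0915, limma adjusted p = 1.2e-07), and it was 5.89 within replicate 1 and 5.87 within replicate 2. The rule that chose the gene used the libraries without RANKL, but it was set with earlier results of these data known. The p-value is therefore not fully independent of that choice. In this comparison 45.2% of the 11673 genes tested were called, 14.3% higher and 30.9% lower. Of the genes tested, 3 had a higher log2 fold change than Ifi44. Against WT basal, which lies on the same side of the division in Lyz2 and Ifi202b as the Mir182ΔM/ΔM groups, Ifi44 in Mir182ΔM/ΔM RANKL was 3.34-fold higher. These groups differ in both genotype and RANKL, and WT basal was used to choose the gene, so this value is a description.

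Ifi44l was hardly detected after RANKL. Mir182ΔM/ΔM held 18 reads and WT 0, so that the level was at least 2.91-fold higher, measured against 3 reads per library. The log2 fold change was 0.41 on the log2(CPM + 1) scale (SE 0.137, with 0.30 and 0.52 within the replicates), 2.07 with a pseudocount of 0.1 and 6.19 in edgeR on the recovered reads. Ifi44l passed the filter on low values only through WT basal, the group whose values chose it, and these differences are therefore a description with no test.

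The interferon-induced list moved in the direction of Ifi44 after RANKL. All 49 genes were higher in Mir182ΔM/ΔM than in WT cells, beside the 14.3% of all genes given above, with a median log2 fold change of 2.72 against -0.14 over all genes tested. The list was chosen with earlier results of these data known, so this count is no independent test. Dividing by TMM factors, which moved the median of all genes by 0.14, left 49 of 49 called and gave 2403 genes higher and 2379 lower in place of 1666 and 3609. Ifi44 lay above all 49. Ifi44l lay below them on the log2(CPM + 1) scale, but at so few reads its place follows from the pseudocount. The largest changes of the list were those of Cxcl10, a chemokine (17.2 ± 1.82 to 508 ± 12.6 CPM, log2 fold change 4.81), Oasl1 (7.50 ± 0.0656 to 223 ± 2.64 CPM, 4.72) and Iigp1, an immunity-related GTPase (2.01 ± 0.147 to 70.5 ± 3.71 CPM, 4.57). The smallest were those of the surface protein gene Ly6e (1286 ± 39.5 to 3181 ± 117 CPM, 1.31), the ubiquitin ligase gene Dtx3l (83.1 ± 10.8 to 211 ± 12.96 CPM, 1.34) and Tor3a (93.5 ± 1.07 to 243 ± 2.28 CPM, 1.37). The sum over the list was 4026 to 4144 CPM in WT RANKL and 19451 to 19502 CPM in Mir182ΔM/ΔM RANKL. The neutrophil markers summed to 18.5 to 18.6 CPM and 5.31 to 5.68 CPM in these groups and the osteoclast markers differed as given above, and their part in the values of Ifi44 and the list was not tested.

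**Figure D3:**
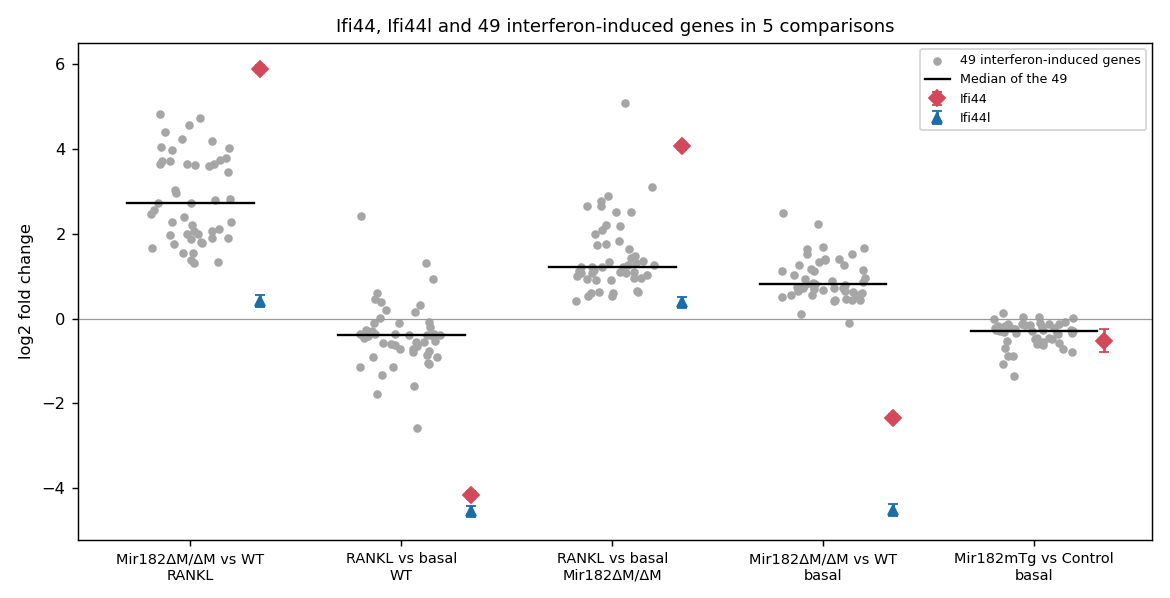
Log2 fold changes of Ifi44 (diamond) and Ifi44l (triangle), with bars for the SE, beside 49 interferon-induced genes (grey points, black line at their median) in 5 comparisons. Scales are log2(CPM + 1) for the first 4 and the edgeR estimate for Mir182mTg against Control, where Ifi44l had no reads. Ifi44 lies above the list in Mir182ΔM/ΔM against WT after RANKL (5.88) and below it in the same genotypes without RANKL (-2.33).

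The responses to RANKL share the basal libraries that chose the genes and are also a description. In WT cells Ifi44 was 24.0-fold lower with RANKL than without (log2 fold change -4.15, SE 0.0915) with values of -4.14 within replicate 1 and -4.17 within replicate 2. In Mir182ΔM/ΔM cells it was 17.9-fold higher (log2 fold change 4.06, SE 0.0915), with values of 4.05 and 4.06 within the replicates. Ifi44l went from 1273 reads to 0 in WT cells, which is at least 197-fold lower. In Mir182ΔM/ΔM cells it went from 1 read to 18, a ratio with a 95% counting interval from 2.74 to 723. WT RANKL and WT basal lie on opposite sides of the division in Lyz2 and Ifi202b, while both Mir182ΔM/ΔM groups lie on the same side.

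The list of 49 behaved less uniformly in WT cells. There 30 genes were lower and 6 higher with RANKL (limma), where 62.6% of all genes tested were called, 22.0% lower and 40.6% higher. With TMM factors, which moved the median of all genes by -0.20, the list gave 37 lower and 5 higher, and all genes gave 3570 lower and 3325 higher in place of 2566 and 4738. The lowest of the list was Siglec1, a macrophage adhesion receptor (859 ± 5.49 to 144 ± 0.278 CPM, log2 fold change -2.57), and the highest was Ly6e (241 ± 17.8 to 1286 ± 39.5 CPM, 2.41). Ifi44 and Ifi44l lay below all 49. In Mir182ΔM/ΔM cells 47 of 49 were higher and 0 lower, where 56.8% of all genes were called, 30.5% higher and 26.3% lower, and Cxcl10 alone had a larger log2 fold change (5.09) than Ifi44.

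The machinery upstream of Ifi44 was followed in 11 genes. The ligand gene Ifnb1 held 8 reads in Mir182ΔM/ΔM RANKL and 0 in both WT groups, too few to enter the test. Of the other 10, 7 were higher and 2 lower in Mir182ΔM/ΔM than in WT cells after RANKL (limma), beside 14.3% and 30.9% of all genes tested, and 1 was not called. The transcription factor gene Irf7, itself induced by interferon, rose most (48.7 ± 1.43 to 1326 ± 41.2 CPM, log2 fold change 4.74, adjusted p = 8e-08). Of the factors that act at ISREs, Stat2 rose by 2.32 (72.0 ± 1.003 to 364 ± 8.54 CPM) and Irf9 by 0.80 (62.2 ± 3.68 to 109 ± 2.91 CPM) on the log2 scale. The receptor genes changed little, with log2 fold changes of 0.23 for Ifnar1 (adjusted p = 0.015) and 0.34 for Ifnar2 (adjusted p = 0.013). Irf1 (0.61) and Irf5 (0.40) were also higher. Irf3, a sensor-activated factor upstream of Ifnb1, was lower (59.1 ± 3.72 to 37.8 ± 0.735 CPM, log2 fold change -0.63), as was Jak1 (-0.23), and Tyk2 was not called (-0.10, adjusted p = 0.53). The median of all genes tested was -0.14 here and moved by 0.14 with TMM factors. That shift is near the size of the changes of Jak1, Tyk2 and the receptor genes, whose calls with TMM factors are not given.

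Without RANKL Irf7 and Stat2 did not follow Ifi44. Irf7 (1.38) and Stat2 (0.68) were higher in Mir182ΔM/ΔM than in WT basal cells on the log2 scale, and Ifi44 was at -2.33. Of the 10 upstream genes, 3 had log2 fold changes above 0 and 7 below. Their median was -0.02 against 0.01 for all genes tested, a description only. Irf7 had 57.7 CPM in WT basal against 151 CPM in Mir182ΔM/ΔM basal, so the group with less Irf7 had more Ifi44. After RANKL the group with more Irf7 also had more Ifi44. No test of this contrast between the genes was run.

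**Figure D4:**
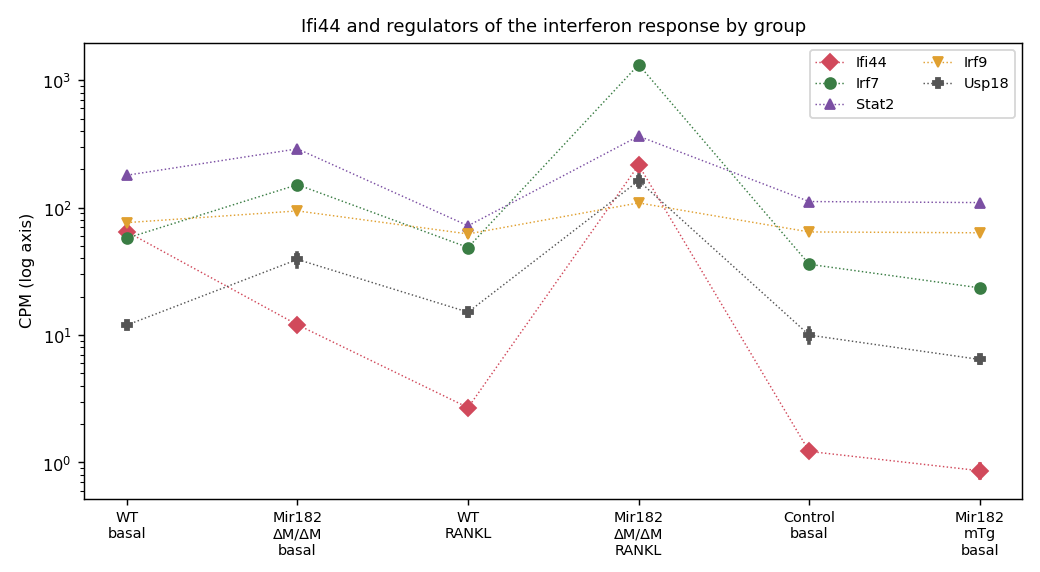
Mean CPM (log axis) of Ifi44 and of 4 genes of the interferon response in the 6 groups, with thick bars from replicate 1 to replicate 2 and dotted lines that only guide the eye. All 5 genes peak in Mir182ΔM/ΔM RANKL, and Ifi44 alone is lower in Mir182ΔM/ΔM basal (12.04 CPM) than in WT basal (64.6 CPM).

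Of 3 genes that restrain the response, 1 was called higher and 1 lower in Mir182ΔM/ΔM RANKL against WT RANKL, and the 5 genes of the FKBP5 list gave the same counts, beside 14.3% and 30.9% of all genes tested. Usp18, a protease that removes Isg15 and blocks the receptor, rose from 15.1 ± 1.47 to 163 ± 26.1 CPM (log2 fold change 3.34, limma adjusted p = 7.9e-06). The inhibitors Socs3 (log2 fold change -0.47, adjusted p = 0.038) and Socs1 (0.41, adjusted p = 0.11) did not share this size of change. Fkbp5, the gene of the co-chaperone to which the IFI44 proteins are reported to bind, had 51.0 ± 2.54 CPM in WT RANKL against 56.6 ± 3.71 CPM in Mir182ΔM/ΔM RANKL (log2 fold change 0.15, adjusted p = 0.21). The kinase gene Ikbke, reported to be acted on through FKBP5, was higher (0.70, adjusted p = 0.0002), Tbk1 was slightly lower (-0.18, adjusted p = 0.046), and Chuk (-0.04, adjusted p = 0.73) and Ikbkb (0.02, adjusted p = 0.84) were not called. The shift of 0.14 in the median of all genes with TMM factors is near the size of the values of Tbk1 and Fkbp5. Whether these genes are called therefore depends on the scaling, and their calls with TMM factors are not given. In the basal comparison, given as a description, Usp18 was at 1.62 and Fkbp5 at 0.50. There 2 of the 3 brakes and 4 of the 5 genes of the FKBP5 list had log2 fold changes above 0, and 1 in each list was below.

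Overexpression of miR-182 was tested at baseline, where little Ifi44 was present. Control held 71 reads of Ifi44 and Mir182mTg 52, and the log2 fold change of -0.52 (SE 0.269) did not pass the test (edgeR, adjusted p = 0.89; 0.24 to 1 over the alternatives). On the log2(CPM + 1) scale it was -0.39 within replicate 1 and -0.12 within replicate 2. Ifi44l had 0 reads in all 4 libraries, which allows up to 0.0908 to 0.113 CPM per library. In this comparison 0.257% of 12063 genes were called, 0.0995% higher and 0.158% lower. Of the list of 49, 2 were lower and 0 higher, with 45 of 49 log2 fold changes below 0 and a median of -0.29 against -0.0015 over all genes tested. In the same libraries the neutrophil markers summed to 48.3 to 49.996 CPM in Control and 101 to 112 CPM in Mir182mTg, and the osteoclast markers to 39.0 to 43.7 CPM and 59.9 to 69.3 CPM, and their part in these values was not tested. The genes called were Zbp1, a nucleic acid sensor (9.97 ± 0.526 to 3.95 ± 0.111 CPM, log2 fold change -1.35, adjusted p = 0.045), and Siglec1 (266 ± 7.71 to 162 ± 6.17 CPM, -0.73, adjusted p = 0.045). The count of 2 was 5 without a filter, 6 in DESeq2, and 4 and 5 without Control replicate 1 and replicate 2. With the replicate number as a block 32 of the list were lower, 0 higher, and 841 genes of all were higher and 994 lower, while Ifi44 was still not called. After Zbp1 the lowest were Oas1g, an enzyme that activates RNase L (8.55 ± 4.37 to 4.12 ± 0.860 CPM, adjusted p = 0.65), and Ifi27l2a (74.0 ± 23.3 to 40.4 ± 10.4 CPM, adjusted p = 0.51). The highest were Cxcl10 (8.63 ± 1.002 to 9.50 ± 0.943 CPM), Ddx60 (8.55 ± 0.357 to 8.90 ± 1.59 CPM) and Bst2 (83.3 ± 24.5 to 86.5 ± 28.9 CPM), each with an adjusted p of 1. Of the 10 upstream genes tested, 3 brakes and 5 genes of the FKBP5 list, 0 were called, and Irf7 came nearest (35.9 ± 1.51 to 23.5 ± 0.652 CPM, log2 fold change -0.62, adjusted p = 0.091). In the fit without a block, 863 of the 12063 genes had an unadjusted p under 0.05.

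Control and WT basal are both basal BMMs that carry LysMcre and lack a change at Mir182, but they come from separate tables and were not tested against each other. The mean of Ifi44 was 52.9 times higher in WT basal (64.6 CPM) than in Control (1.22 CPM). Ifi44l was at least 214-fold higher in WT basal, against 3 reads per library. The sum over the interferon-induced list was 4625 to 4780 CPM in WT basal and 2836 to 2855 CPM in Control. Lyz2 and Ifi202b separate these groups as described above. On the side of WT basal, which held 1273 reads of Ifi44l, Mir182ΔM/ΔM basal held 1 and Mir182ΔM/ΔM RANKL 18. The groups on the side of Control held 0. Whether the levels of Ifi44 and Ifi44l belong to the same division was not tested.

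In the genes around the pair with the most reads, Dnajb4 and Adgrl2, the groups ran in an order unlike that of Ifi44 or Ifi44l. The other neighbours had too few reads to show much of a pattern. The nearest protein-coding gene on the side of Ifi44l, Ptgfr, a prostaglandin receptor gene 33610 bases away, had 0 reads in every library. On the side of Ifi44, Adgrl4, an adhesion receptor gene 185836 bases away, ranged from 0.601 to 0.611 CPM in WT basal, from 0.373 to 0.629 CPM in Mir182ΔM/ΔM basal and from 0.590 to 0.624 CPM in Mir182ΔM/ΔM RANKL, and was near the value of 3 reads in WT RANKL (0.0798 and 0.108 CPM). Farther out, the co-chaperone gene Dnajb4 lies 415619 bases away on the side of Ifi44l. It ranged from 31.7 to 35.9 CPM in WT basal, 28.0 to 29.2 CPM in Mir182ΔM/ΔM basal, 20.05 to 20.8 CPM in WT RANKL and 24.2 to 25.2 CPM in Mir182ΔM/ΔM RANKL. The adhesion receptor gene Adgrl2 lies 2740367 bases away on the side of Ifi44. It was at 103 to 111 CPM in all 4 RANKL libraries and 30.04 to 44.6 CPM in the 8 basal libraries. Gipc2 and Ttll7 stayed at or under 1.04 CPM.

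The genes whose pattern was most like each member were sought over 12 libraries by the Pearson correlation of log2(CPM + 1), given as a description since groups and replicate numbers are shared. For Ifi44 they were Slfn8 (r = 0.968), Chp1 (0.963), Mxd1 (0.958), Pld3 (0.946) and Il18bp (0.933) of 11775 genes. Slfn8 is on the interferon-induced list and is the one gene of it with a negative value in the basal comparison of genotypes. Its levels were 50.9 to 56.3 CPM in WT basal, 47.7 to 52.7 in Mir182ΔM/ΔM basal, 94.0 to 96.4 in Mir182ΔM/ΔM RANKL, and 19.4 to 24.1 CPM in the 6 libraries with high Lyz2. Its order of groups was that of Ifi44 in the 4 highest groups, over a narrower range.

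For Ifi44l the most alike were 3830403N18Rik (r = 0.959), Lyplal1 (0.900), Ms4a7 (0.853), Pcdhga5 (0.840) and Wfdc18 (0.838). 3830403N18Rik had 1.74 and 2.89 CPM in WT basal and was at or under 0.465 CPM elsewhere. Lyplal1, a lysophospholipase-like gene, reached 10.6 and 10.2 CPM in WT basal, with 1.52 and 1.64 CPM in Mir182ΔM/ΔM basal and 2.17 and 2.38 CPM in Control. Ifi44 and Ifi44l correlated with each other at r = 0.502, which placed Ifi44l at rank 815 of the genes like Ifi44, and Ifi44 at rank 1105 of those like Ifi44l.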

How the data were processed

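RNA-seq of 12 BMM libraries in 6 groups of 2 was read from 1 table per library. Protocols in the labels describe poly-A selection for every library, although the molecule field reads polyA RNA in replicate 1 but total RNA in replicate 2. For the 8 loss of function libraries the authors deposited CPM from edgeR, in which 100% of values were whole multiples of 1 read (tolerance 0.01 read). For the 4 gain of function libraries the authors deposited raw counts from HTSeq. The authors also deposited RPKM for replicate 1 of each group, from which gene lengths were taken. Reads were aligned to mm10, per the labels with TopHat and Cufflinks for replicate 1 and with HISAT2, HTSeq and edgeR for replicate 2. Groups and replicate numbers were taken from sample titles.

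Of 24421 rows, 27 names had been turned into dates and were left out of tests. CPM were tested with limma 3.58.1 (lmFit, eBayes with trend) on log2(CPM + 1), for genes that reached 1 CPM in 2 or more of the 8 libraries, in one fit of 4 groups. Fold changes on that scale understate those of low genes. A planned test of Ifi44l after RANKL is not given, since the gene passed the filter only through WT basal. Counts were tested with edgeR 4.0.16 (TMM, filterByExpr, quasi-likelihood). P-values were adjusted by Benjamini-Hochberg over all genes tested, with a threshold of 0.05. The alternatives were other filters, a pseudocount of 0.1, TMM factors, quantile normalization, edgeR on recovered reads (for Mir182ΔM/ΔM against WT after RANKL 2481 genes higher and 2448 lower of 12561), DESeq2 1.42.0, the samples of 1 contrast, the replicate number as a block, and each library left out. The replicate differences of groups correlated at 0.690 to 0.754 over the pairs of loss of function groups. In the gain of function experiment they correlated at 0.745. The main fits and their p-values left out this pairing by replicate number, which is given in the titles. It entered only as a block among the alternatives and in the differences within each replicate number. Whether replicates were separate cultures or animals is not given in the labels, and p-values measure the spread between these libraries. Intervals (95%, exact binomial on reads) and floors of 3 reads cover counting error only.

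The genes and lists were chosen with earlier results of these data known. Named genes were Ifi44 and Ifi44l, the 3 highest and 3 lowest list genes in each genotype comparison, the genes of the 3 short lists, the 5 genes most alike over libraries or group means, 3 protein-coding neighbours on each side, and checks of the libraries. Siglec1 and Ly6e in WT cells, Siglec1 in Mir182mTg cells and Cxcl10 in Mir182ΔM/ΔM cells were named after their values were seen. Coordinates came from GENCODE vM21 and RefSeq tables of GRCm38.p6, and sequences from the latter. The scripts were tested on simulated data. Some genes of the lists are not reported here and were left out of the counts and sums.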

Additional observations from a re-analysis of the deposited data

Results flagged for a closer look

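The response of Ifi44 to RANKL ran in opposite directions in the genotypes, with both WT RANKL libraries below both WT basal libraries and both Mir182ΔM/ΔM RANKL libraries above both basal ones. The response in Mir182ΔM/ΔM minus that in WT cells was 8.21 on the log2(CPM + 1) scale (SE 0.129). The difference was not tested, since the basal libraries chose the gene. Ifi44l was also lower in every WT RANKL library and higher in every Mir182ΔM/ΔM RANKL library than in the basal libraries of the same genotype, with a difference of 4.92 (SE 0.194), which was not tested either and in Mir182ΔM/ΔM cells rests on 18 reads against 1. In both genes the WT response is between groups whose mean differs 100.4-fold in Lyz2 and 98.2-fold in Ifi202b, and the part of this in the difference was not tested. With 2 libraries per group, no library was examined as an outlier within its group.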

How the results depend on the processing

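The log2 fold changes of Ifi44 and Ifi44l kept their sign in every comparison under every alternative that gave a value. Ifi44 in Mir182ΔM/ΔM against WT after RANKL stayed past the threshold (adjusted p 4e-25 to 3.2e-05 over 16 alternatives), and in Mir182mTg against Control it stayed short of it. For Ifi44l after RANKL, given with no test, the estimate was 0.41 without a filter and with TMM factors, 0.34 with quantile normalization, 2.07 with a pseudocount of 0.1, 6.19 in edgeR, and 0.30 to 0.52 with each library left out. It gave no value under the strict filter, with the samples of the contrast alone or without a WT basal library, since it then failed the filter.

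Values without a test moved with the scale. Ifi44 in WT cells with against without RANKL was -4.54 with a pseudocount of 0.1, -4.32 with TMM factors, -4.43 with quantile normalization and -4.80 in edgeR. In Mir182ΔM/ΔM cells it was 4.15 with a pseudocount of 0.1, and between basal genotypes -2.42 with that pseudocount and -2.44 in edgeR. Ifi44l in WT cells with RANKL was -7.81 with a pseudocount of 0.1 and -12.34 in edgeR. In Mir182ΔM/ΔM cells with RANKL it was 1.84 with the pseudocount, 0.21 with quantile normalization and 3.79 in edgeR. Between basal genotypes it was -7.58 and -9.95 with the pseudocount and in edgeR. Values against 0 or 1 read depend on the offset by construction.

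Of the list of 49, the genes lower in Mir182mTg numbered 2, against 5 without a filter, 6 in DESeq2, 32 with the replicate block and 2 to 5 with each library left out. Those higher in basal Mir182ΔM/ΔM cells numbered 40, against 20 without a filter, 22 with the samples of the contrast alone, and 21 to 37 with each library left out (21 without Mir182ΔM/ΔM basal replicate 1 or WT basal replicate 2, 23 without Mir182ΔM/ΔM basal replicate 2).

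Over all genes, Mir182ΔM/ΔM against WT after RANKL gave 2379 lower with TMM factors and 2737 higher and 5809 lower with the replicate block, against 1666 and 3609. Mir182mTg against Control gave 12 higher and 19 lower, against 68 and 68 without a filter, 57 and 67 in DESeq2, 841 and 994 with the block, 22 higher in limma, and 32 to 85 higher and 24 to 80 lower with each library left out. The basal genotypes gave 317 higher and 129 lower, against 205 higher without a filter, 2166 and 1477 with the block, 73 and 31 with the samples of the contrast alone, and 69 to 214 higher and 28 to 81 lower with each library left out. The causes were not tested. The replicate block changed no call of Ifi44. Differences of Ifi44 between Control and Mir182mTg rest on 25 to 41 reads per library, and this depth limits what could be detected.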

Other observations

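Over the means of the 6 groups, in place of 12 libraries, the genes most like Ifi44 were Mxd1 (r = 0.975), Reep3 (0.974), Slfn8 (0.971), Chp1 (0.969) and Ahnak (0.964), of which Mxd1, Slfn8 and Chp1 were also among the 5 most alike over libraries. Reep3 was at 225 to 282 CPM in Mir182ΔM/ΔM RANKL and 124 to 157 CPM in Control. For Ifi44l they were 3830403N18Rik (0.969), Pcdhga5 (0.911), Susd3 (0.908), Nr1h2 (0.906) and Idnk (0.902). The last 3 varied little, with Nr1h2, a liver X receptor gene, at 91.7 and 100.4 CPM in WT basal and 78.6 to 89.4 CPM elsewhere. Correlations over 6 points that share replicate numbers describe these groups only.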
